A study of Mus musculus with 6 samples.

Results

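Neurotransmitter receptor subunit genes were followed in E14Tg2a cells, a mouse embryonic stem cell (ESC) line, by RNA-seq of 3 samples of ESCs kept with Leukemia Inhibitory Factor (LIF) and 3 samples of cells grown without LIF in 1 μM retinoic acid (RA) for 48 h. The RA-treated cells are called NCs, for neuronal cells, as in the study. Both groups were at passages 37 to 40, and each sample was taken from 2 plates. The genes were chosen by name, as those that encode subunits of GABA-A and GABA-B, AMPA, delta, kainate, NMDA, metabotropic glutamate, glycine, nicotinic and muscarinic acetylcholine, dopamine, serotonin and adrenergic receptors. The name rule found 100 genes among 23235 entries of the table. The table lists the D1 dopamine receptor as Drd1a, a name outside the rule, at 0.168 FPKM in ESCs against 0.0183 FPKM in NCs.

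Neurotransmitter receptors belong to a pair of structural classes. Ligand-gated ion channels open a pore when transmitter binds and assemble from several subunits, often of different genes, so that a channel needs its obligatory partners. G protein-coupled receptors signal through second messengers and mostly work as the product of a single gene. These receptors are best known from synapses, but ESCs and neural progenitors are known to carry several of them before synapses form, GABA-A receptors among them.

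Levels are in FPKM, fragments scaled to transcript length and to the mapped fragments of the library, which can be compared between genes because length is divided out. The authors deposited 1 FPKM value per gene and condition, estimated from the 3 samples together. The spread between samples is therefore unknown, no test was run, and each comparison is the NC value divided by the ESC value. A gene is called evaluable below when Cuffdiff, the program the authors used, marked it as having enough fragments, and higher or lower when the values differ at least 2-fold. From the steps between low values in single-transcript genes, 1 fragment in 1 kb of transcript was worth 0.0119 or 0.0138 FPKM for ESCs and 0.00714 or 0.0143 FPKM for NCs. Length was counted here as that of the transcript less an assumed fragment length of 200 bases. Dividing by the larger step gave an approximate number of fragments per gene, and from it an exact 95% binomial interval of each log2 ratio. The smaller step would give more fragments per gene, above all in NCs, and which step is 1 fragment was not settled. These intervals cover counting error only, and a fragment copied in PCR is counted as if it were independent.

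Summed over the table, FPKM reached 770592 (ESCs) and 628679 (NCs), and the median log2 ratio of the 14483 evaluable entries was -0.02. All 6 markers of pluripotent cells were lower in NCs, their sum being 1547 FPKM in ESCs against 82.8 FPKM in NCs. Of 6 markers of neural progenitors 4 were higher in NCs, led by Pax6, at 3.64 FPKM in ESCs against 65.2 FPKM in NCs. Fabp7 of this list was 2.64-fold lower, at 1.11 FPKM in ESCs against 0.421 FPKM in NCs. Nes was within 2-fold, at 12.9 and 18.3 FPKM. Markers of neurons went against the name of the cells. None of the 9 evaluable ones was higher in NCs and 4 were lower, Tubb3 and Stmn2 among them, and the sum over the list of 10 was 204.5 FPKM in ESCs against 35.1 FPKM in NCs. Dcx, a marker of young neurons, went the other way, at 0.0140 FPKM in ESCs against 0.334 FPKM in NCs, and was not evaluable. Of 5 evaluable endoderm markers 4 were higher in NCs, among them Foxa2, at 0.617 and 5.24 FPKM, and the list summed to 7.91 FPKM in ESCs against 20.02 FPKM in NCs. Gata4 of this list was within 2-fold, at 3.30 and 3.69 FPKM. The marker counts stand beside 13.8% higher and 11.2% lower of all evaluable entries, or 25.5% and 16.6% under 5 FPKM. The trophoblast list summed to 4.98 FPKM in ESCs against 11.1 FPKM in NCs, the mesoderm list to 1.99 and 1.91 FPKM, the glia list to 3.73 and 5.56 FPKM, and the list of skeletal muscle to 21.0 and 18.5 FPKM. The part of these cell types in the receptor values was not tested. In such bulk samples, fewer cells of a type and less RNA per cell cannot be told apart.

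Most receptor genes were close to silent in both conditions. Of the 100 genes 39 were evaluable, which is 39% against 62.3% of all entries. The median level in the higher condition was 0.171 FPKM, against 2.41 FPKM over all entries. At least 1 FPKM was reached by 15 genes in ESCs, by 21 in NCs and by 8 in both. A value of 0 was listed for 10 genes in ESCs and for 4 in NCs, and for Gabra6, Glra3 and Htr1a in both. The highest levels belonged to Grik5, Gabbr1 and Adrb3. Among kainate receptor genes 3 of 5 were evaluable, and among serotonin receptor genes 2 of 14.

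**Figure D1:**
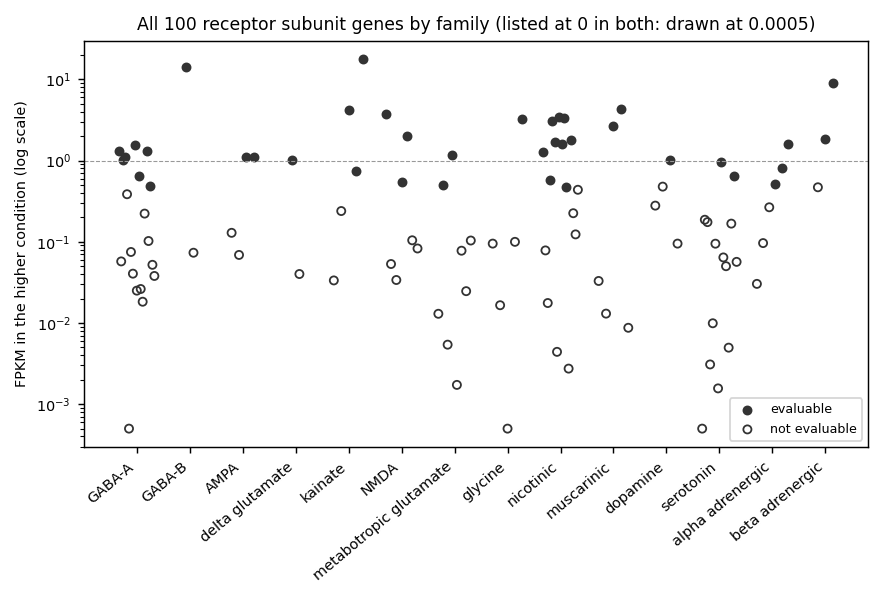
Level in the higher of both conditions (FPKM, log scale) of each of the 100 receptor subunit genes, by family, with filled circles for the 39 evaluable genes and open circles for the other 61. The dashed line marks 1 FPKM, most open circles lie below 0.2 FPKM, and the 3 genes at 0 in both conditions are drawn at the bottom.

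Of the 39 evaluable genes, 16 were at least 2-fold higher in NCs, 10 were at least 2-fold lower and 13 were within the limit. Among all evaluable entries 13.8% were higher and 11.2% lower. A gene of low level becomes evaluable through the condition in which it is high, so a count over such genes is a description. Among evaluable entries under 5 FPKM in the higher condition, the range that holds 36 of the 39 receptor genes, 25.5% were higher and 16.6% lower. In that range 15 of the 36 receptor genes (41.7%) were higher and 9 (25%) lower. The median log2 ratio of the 39 genes was 0.70. With both conditions scaled to the same sum, which shifts every log2 ratio by 0.29, 18 of the 39 were higher and 7 lower. Of the called receptor genes 72% were then higher, in place of 61.5%. Over all evaluable entries this scaling gave 19.2% higher and 7.86% lower. There 70.9% of the called entries were higher, in place of 55.2%, so with the scaling the receptor share was close to that of all entries. It was also close without the scaling among entries under 5 FPKM, at 62.5% of called receptor genes and 60.6% of all called entries.

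The counting interval lay wholly beyond the 2-fold limit for 15 of the 16 higher genes, all but Drd4, and for 7 of the 10 lower genes. The intervals of Adrb3 and Chrna1 reached inside the limit. The ion channel genes gave 10 higher, 7 lower and 10 within the limit among 27 evaluable of 60. The G protein-coupled receptor genes gave 6 higher, 3 lower and 3 within the limit among 12 evaluable of 40. The counts of both classes stand beside 13.8% higher and 11.2% lower of all evaluable entries, or 25.5% and 16.6% under 5 FPKM. Among the other 61 genes, 39 had the higher value in NCs, 19 in ESCs and 3 were at 0 in both, and the largest value was 0.478 FPKM. Of these 61, 15 had about 3 fragments or fewer in both conditions. Directions were not counted over all entries that were not evaluable, so the 39 and 19 only describe these genes.

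**Figure D2:**
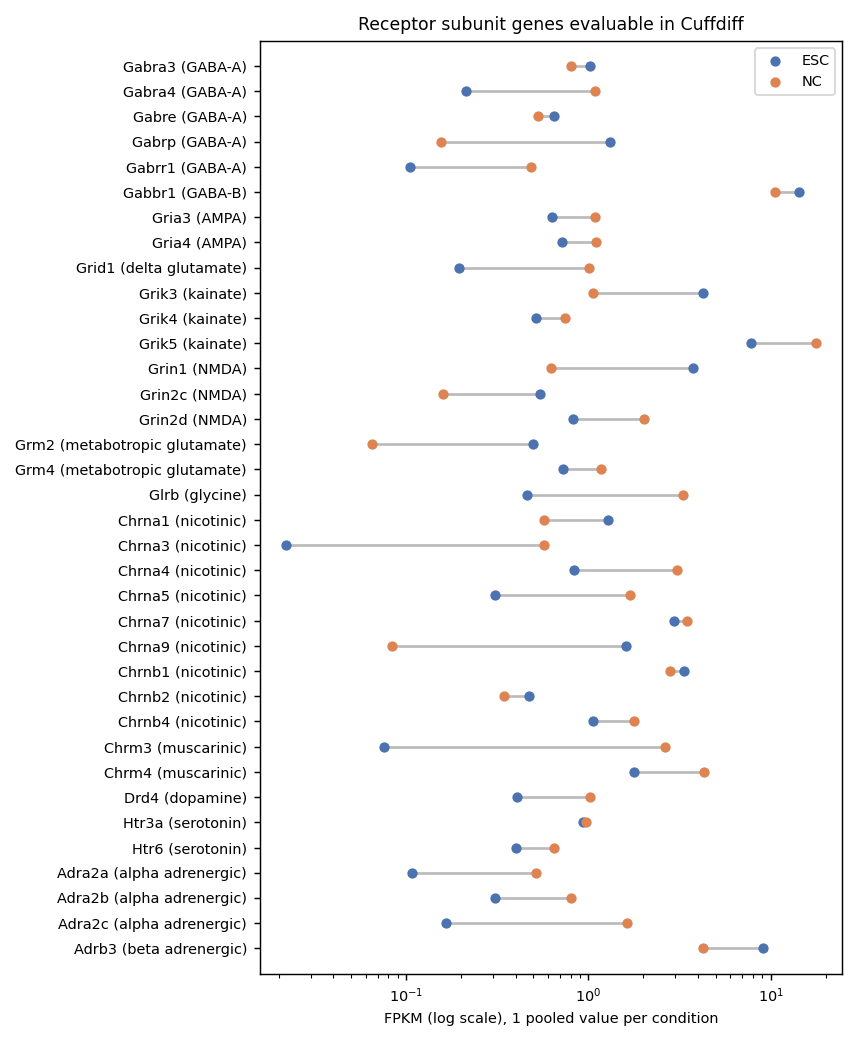
FPKM (log scale) of 36 evaluable receptor subunit genes in ESCs (blue) and NCs (orange), 1 value per condition, ordered by family. Grik5, Gabbr1 and Adrb3 lie to the right of all others, and the longest lines belong to Chrm3, Chrna3 and Chrna9.

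**Figure D3:**
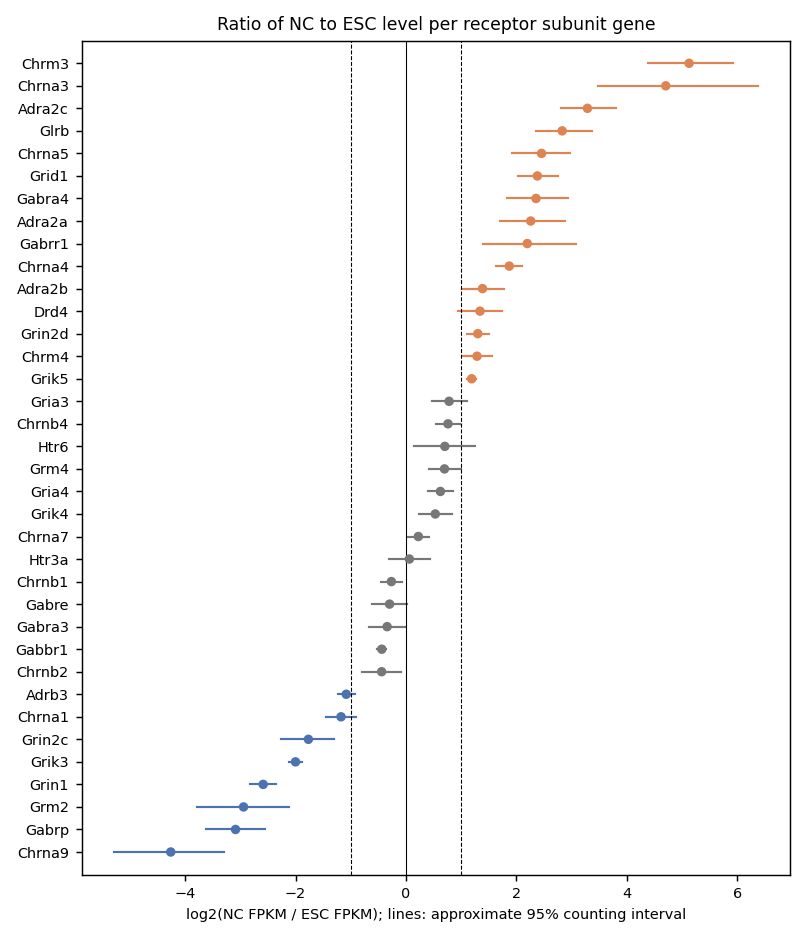
log2 ratio of the NC to the ESC level of 36 evaluable genes (points) with its approximate 95% counting interval (lines). Dashed lines mark the 2-fold limit. Of the points 15 lie at or beyond it on the NC side (orange) and 8 on the ESC side (blue).

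GABA-A receptors are chloride channels that usually combine alpha and beta subunits with a gamma or delta subunit. Gabra4 was at 0.214 FPKM in ESCs against 1.09 FPKM in NCs, 5.11-fold higher. Gabra3 was at 1.02 FPKM in ESCs against 0.807 FPKM in NCs, within the limit. The NC values of Gabra4 and Gabra3 rest on about 169 and 143 fragments.

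The beta genes Gabrb1 and Gabrb2 were near silent, with at most 0.0749 FPKM in either condition. Gamma subunits bring receptors to synapses and form part of the benzodiazepine site. Gabrg1 and Gabrg3 had 0.0262 and 0.00968 FPKM in NCs, neither evaluable. Gabrg3 had 0.222 FPKM in ESCs. Gabra5 had 0.230 FPKM in ESCs against 0.385 FPKM in NCs and was not evaluable. The delta gene Gabrd had 0.0250 FPKM in NCs.

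Gabrp encodes the pi subunit, known from epithelia outside the brain. It was 8.49-fold lower in NCs, at 1.32 FPKM in ESCs against 0.155 FPKM in NCs (log2 ratio -3.09, interval -3.62 to -2.55). Gabre, the epsilon subunit, was within the limit at 0.650 and 0.530 FPKM. Gabrr1, a rho subunit that forms channels of its own and is best known from the retina, was 4.58-fold higher in NCs, at 0.106 FPKM in ESCs against 0.484 FPKM in NCs.

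Glycine receptors pair channel-forming alpha subunits with the beta subunit, which binds the scaffold protein gephyrin and does not make a glycine channel alone. The beta gene Glrb (chromosome 3, 80843599 to 80913660) was 7.09-fold higher in NCs, at 0.464 FPKM in ESCs against 3.29 FPKM in NCs, with an interval of its log2 ratio from 2.35 to 3.37. None of the 4 alpha genes was evaluable. Glra4 and Glra1 led them with 0.0998 and 0.0949 FPKM in ESCs and 0.0675 and 0.0638 FPKM in NCs, Glra2 stayed under 0.02 FPKM, and Glra3 was listed at 0 in both conditions.

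GABA-B receptors are obligatory dimers in which Gabbr1 binds GABA and Gabbr2 couples to the G protein. Gabbr1 (chromosome 17, 37045966 to 37075067) was the receptor gene with the highest level in ESCs, at 14.3 FPKM, and had 10.5 FPKM in NCs, within the limit. Gabbr2 had 0.0176 FPKM in ESCs against 0.0733 FPKM in NCs, about 7 and 29 fragments, and was not evaluable. The levels of both partners thus differed by a wide margin in either condition.

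**Figure D4:**
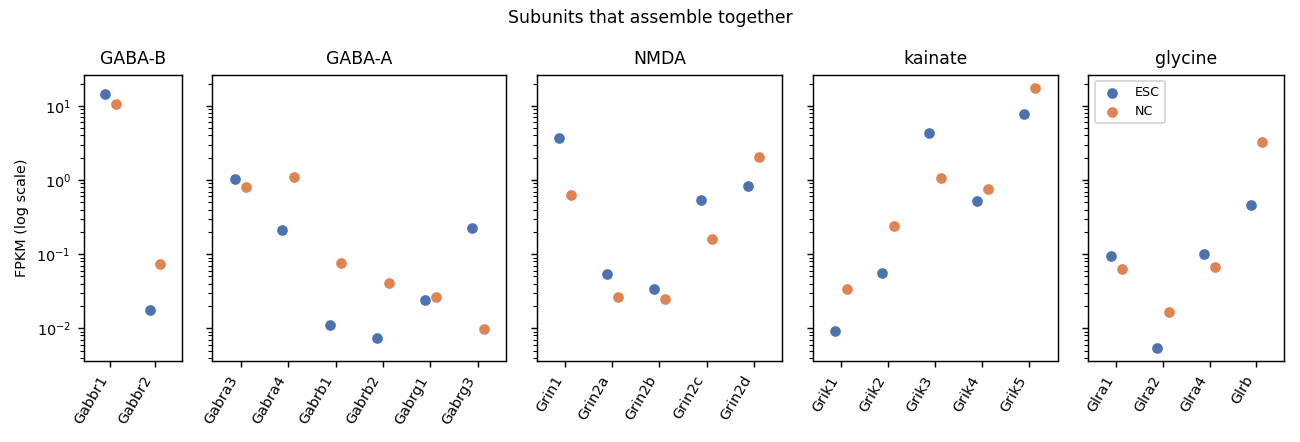
FPKM (log scale) in ESCs (blue) and NCs (orange) of subunit genes whose products assemble together, in a panel per receptor. Gabbr1 stands far above Gabbr2, Gabrg1 and Gabrg3 lie below Gabra3 and Gabra4 in NCs, and Grin1 lies above all Grin2 genes in ESCs and below Grin2d in NCs.

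Ionotropic glutamate receptors comprise AMPA, kainate and NMDA receptors, with the delta receptors as relatives that bind glycine or D-serine. NMDA receptors require the Grin1 subunit together with Grin2 or Grin3 subunits. Grin1 (chromosome 2, 25291181 to 25319187) had 6.01-fold less RNA in NCs, with 3.73 FPKM in ESCs against 0.622 FPKM in NCs, a log2 ratio of -2.59 with an interval from -2.83 to -2.34. Its exons share 1307 bases with Grin1os on the opposite strand, and whether fragments were counted by strand was not found in the methods.

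Among the Grin2 genes, Grin2c and Grin2d differed in opposite directions. Grin2c was 3.4-fold lower in NCs, at 0.542 FPKM in ESCs against 0.159 FPKM in NCs. Grin2d, an isoform typical of the embryonic brain, was 2.46-fold higher, at 0.821 FPKM in ESCs against 2.02 FPKM in NCs. It shares 643 exon bases with Gm45441, and Grin2c shares 91 with Gm25837, both on the opposite strand. Grin2a and Grin2b, the main partners of the adult forebrain, were at 0.0532 and 0.0338 FPKM in ESCs and at 0.0267 and 0.0251 FPKM in NCs. In ESCs Grin1 thus exceeded each Grin2 gene, and in NCs it had less than Grin2d.

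Kainate receptors are built from Grik1 to Grik3, which can form channels alone, and from Grik4 and Grik5, which need 1 of these. Grik5 (chromosome 7, 25009849 to 25072346) had the highest level of all receptor genes, at 7.76 FPKM in ESCs against 17.7 FPKM in NCs, a 2.28-fold difference that rests on about 2009 and 4422 fragments. Grik3 (chromosome 4, 125490700 to 125714173), the main channel-forming gene in ESCs, was 4.0-fold lower in NCs, at 4.25 FPKM in ESCs against 1.06 FPKM in NCs. Grik4 had 0.519 and 0.750 FPKM, within the limit, and shares 59 exon bases with Gm24420 on the same strand. Grik2 had 0.0556 FPKM in ESCs against 0.239 FPKM in NCs, and Grik1 0.00929 and 0.0334 FPKM, neither evaluable.

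AMPA receptors carry most fast excitatory transmission, and edited Gria2 makes them nearly impermeable to calcium. Gria3 and Gria4 were the genes seen here, at 0.636 and 0.715 FPKM in ESCs and at 1.09 and 1.10 FPKM in NCs. Both were under 2-fold higher, and the intervals of their log2 ratios, 0.47 to 1.10 and 0.39 to 0.85, lay above 0. Gria1 had 0.129 FPKM and Gria2 0.0688 FPKM in NCs, neither evaluable. Grid1, a delta receptor that acts in synapse adhesion, was 5.20-fold higher in NCs, at 0.195 and 1.01 FPKM. On the same strand, Grid1 shares 91 exon bases with Gm27617, Gria3 shares 85 with Gm22413 and Gria4 shares 19 with Gm23811.

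Metabotropic glutamate receptors couple to G proteins. Of the 8 genes Grm2 and Grm4, which both lower cyclic AMP, were evaluable. Grm2 (chromosome 9, 106643095 to 106656082) had 7.68-fold less RNA in NCs, with 0.499 FPKM in ESCs against 0.0650 FPKM in NCs, about 116 and 15 fragments, and it shares 470 exon bases with Gm28111 on the opposite strand. Grm4 had 0.725 FPKM in ESCs against 1.18 FPKM in NCs, within the limit. The other 6 genes had at most 0.104 FPKM. Of all 26 glutamate receptor genes 11 were evaluable, of which 3 were higher, 4 lower and 4 within the limit. Beside these counts, 13.8% of all evaluable entries were higher and 11.2% lower, or 25.5% and 16.6% of those under 5 FPKM.

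Nicotinic receptors are cation channels opened by acetylcholine, with one set of subunits in skeletal muscle and others in neurons and epithelia. The largest nicotinic fold differences among evaluable genes were those of Chrna3 and Chrna9, in opposite directions. Chrna3 (chromosome 9, 55010111 to 55026562), the main ganglionic alpha subunit, was at 0.0220 FPKM in ESCs against 0.574 FPKM in NCs. Its ratio of 26.1 rests on about 5 fragments in ESCs and 128 in NCs, with a log2 interval from 3.47 to 6.38. Chrna5, an accessory subunit, was 5.48-fold higher in NCs, at 0.308 and 1.69 FPKM. Chrnb4, their beta partner, had 1.06 FPKM in ESCs against 1.79 FPKM in NCs, 1.69-fold more.

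Chrna4, part of the main nicotinic receptor of the brain, was 3.65-fold higher in NCs, at 0.837 FPKM in ESCs against 3.06 FPKM in NCs. Its usual partner Chrnb2 was within the limit, at 0.470 and 0.346 FPKM, and shares 1365 exon bases with Adar on the opposite strand. Chrna7, which forms channels alone, had the highest nicotinic level in NCs, 3.46 FPKM, and 2.97 FPKM in ESCs. Chrna9 (chromosome 5, 65934921 to 65977326), known from cochlear hair cells, had the largest fold difference toward ESCs of all evaluable receptor genes. It was at 1.60 FPKM in ESCs against 0.0836 FPKM in NCs, 19.1-fold lower, about 191 and 10 fragments (log2 ratio -4.26, interval -5.29 to -3.29). Its partner Chrna10 had at most 0.0783 FPKM.

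Of the 5 muscle subunit genes Chrna1 and Chrnb1 were evaluable. Chrna1 was 2.26-fold lower in NCs, at 1.28 and 0.568 FPKM, and Chrnb1 was within the limit, at 3.36 FPKM in ESCs against 2.79 FPKM in NCs. With both conditions scaled to the same sum Chrnb1 had the higher value in NCs. Chrng, the fetal subunit, had 0.186 FPKM in ESCs against 0.437 FPKM in NCs. Chrnd had 0.225 and 0.0905 FPKM and Chrne, the adult subunit, 0.123 and 0.0656 FPKM. Of the 6 skeletal muscle markers, Des, also found in other muscle and mesenchymal cells, had 16.1 and 13.5 FPKM and Acta1, skeletal actin, 4.37 and 4.76 FPKM, both within the limit. Ckm, Myog, Myod1 and Myf5 were not evaluable, with at most 0.197 FPKM in either condition. The part of such cells in the muscle subunit values was not tested.

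Muscarinic receptors are the G protein-coupled receptors for acetylcholine. Chrm3 (chromosome 13, 9875486 to 10360847), which acts through calcium release, had the largest fold difference of all evaluable receptor genes, 34.9-fold, at 0.0758 FPKM in ESCs against 2.64 FPKM in NCs. The log2 ratio of 5.12 rests on about 16 and 529 fragments and had an interval from 4.38 to 5.92. Chrm4, which lowers cyclic AMP, was 2.44-fold higher, at 1.78 and 4.33 FPKM, and had the highest muscarinic level in both conditions. Chrm1, Chrm2 and Chrm5 had at most 0.0329 FPKM. Above 1 FPKM, Chrm4 was the single muscarinic gene in ESCs, and Chrm3 stood beside it in NCs.

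Adrenergic receptors respond to adrenaline and noradrenaline. All 3 evaluable alpha adrenergic genes, those of the alpha2 receptors that lower cyclic AMP, were higher in NCs. Beside this count, 13.8% of all evaluable entries were higher, or 25.5% of those under 5 FPKM. Adra2c was 9.75-fold higher, at 0.166 and 1.62 FPKM. Adra2a was 4.78-fold higher, at 0.108 and 0.515 FPKM, and Adra2b 2.61-fold higher, at 0.308 and 0.804 FPKM. Adrb3, the adipose type, had the highest adrenergic level, 9.05 FPKM in ESCs against 4.27 FPKM in NCs, 2.12-fold lower. Adrb1 had 0.421 FPKM in ESCs against 0.469 FPKM in NCs and was not evaluable, nor were the alpha1 genes, with at most 0.266 FPKM. With both conditions scaled to the same sum, Adrb3, and likewise Chrna1, was within the 2-fold limit. Adrb3 shares 839 exon bases with Gm45470 on the opposite strand.

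Of the dopamine receptor genes, Drd4 was 2.53-fold higher in NCs, at 0.406 FPKM in ESCs against 1.03 FPKM in NCs. Its log2 interval ran from 0.94 to 1.73 and so reached below the 2-fold limit. Drd3 had 0.0257 FPKM in ESCs against 0.478 FPKM in NCs, the largest value of any gene that was not evaluable. Drd2 had 0.279 and 0.0996 FPKM and Drd5 0.0151 and 0.0949 FPKM. Among serotonin receptors, the channel gene Htr3a had 0.930 and 0.970 FPKM and the G protein-coupled Htr6 0.400 and 0.651 FPKM, both within the limit. The other 12 serotonin genes had at most 0.187 FPKM, the NC value of Htr1b.

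Many receptor subunit genes lie side by side in the genome, and their levels were compared within these neighbourhoods. Positions were read by gene name from GENCODE M21 on GRCm38, another name of mm10. With genes joined when at most 1 Mb apart, 35 of the 100 genes fell into 13 neighbourhoods, and 14 of the 35 were evaluable. In the cluster of chromosome 5 (70751047 to 72149037) Gabra4 was the evaluable gene, and Gabrb1, whose start lies next to it on the opposite strand, had 0.0110 FPKM in ESCs against 0.0749 FPKM in NCs. The exons of Gabra4 and Gabrb1 share 46 bases.

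On the X chromosome (72255999 to 72842602) Gabre and Gabra3 were both within the limit and Gabrq was not evaluable. The nicotinic cluster of chromosome 9 (54980880 to 55048779) had all 3 genes evaluable, and Chrna5, Chrna3 and Chrnb4 all had the higher value in NCs. Glrb and Gria2 are neighbours on chromosome 3, and Gria2 had 0.00368 FPKM in ESCs against 0.0688 FPKM in NCs.

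**Figure D5:**
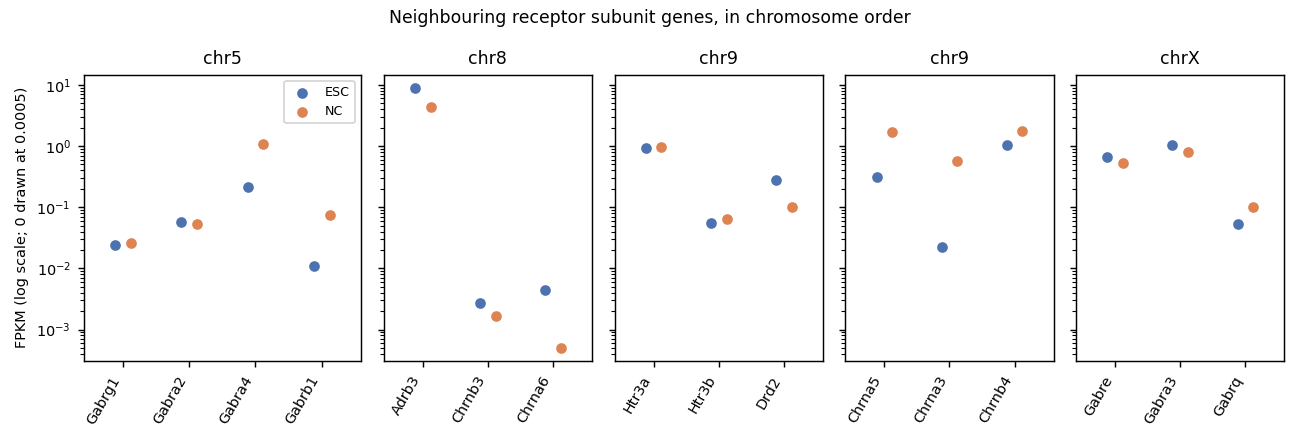
FPKM (log scale) in ESCs (blue) and NCs (orange) of receptor subunit genes in 5 neighbourhoods with 3 or 4 members, in their order along the chromosome, with values of 0 drawn at the bottom. Within the panel of chromosome 5 Gabra4 stands above its neighbours in NCs, and in the right panel of chromosome 9 all 3 genes have the higher value in NCs.

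Promoter windows of 300 bases, from 250 before the transcript start to 50 after it, were taken from RefSeq on GRCm38.p6 for 72 of the 100 genes (83 windows). CpG dinucleotides were counted per window, and a gene with several windows was given its highest count. The median of this count over genes was 18 in 31 evaluable receptor genes and 11 in 41 others. Over all named entries with a window it was 22 in 10505 evaluable genes and 3 in 5703 others. Among evaluable genes higher in NCs, Adra2c and Chrm3 had 7 and 11 CpG and Chrna4 had 33. Among evaluable genes lower in NCs, Chrna9 and Gabrp had 6 and 4, and Grik3 and Grin1 had 50 and 33.

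Windows of Chrm3 (chr13:10360754-10361053, minus strand), Chrna9 (chr5:65966874-65967173, plus strand) and Grik3 (chr4:125490446-125490745, plus strand) follow, 5′ to 3′ on the strand of the gene, with each CpG in capitals. Among evaluable genes Chrm3 had the largest fold difference toward NCs and Chrna9 toward ESCs. The RefSeq window of Chrna9 lies inside the GENCODE span of the gene (65934921 to 65977326), downstream of the start listed there. Which start these cells use was not tested. Grik3 had the most CpG of all receptor windows.
Chrm3: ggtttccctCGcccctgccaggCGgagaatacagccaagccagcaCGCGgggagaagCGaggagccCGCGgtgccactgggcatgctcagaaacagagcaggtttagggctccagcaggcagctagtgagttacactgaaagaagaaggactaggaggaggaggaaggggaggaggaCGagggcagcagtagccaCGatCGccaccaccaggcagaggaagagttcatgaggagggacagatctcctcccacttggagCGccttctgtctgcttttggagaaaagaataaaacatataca
Chrna9: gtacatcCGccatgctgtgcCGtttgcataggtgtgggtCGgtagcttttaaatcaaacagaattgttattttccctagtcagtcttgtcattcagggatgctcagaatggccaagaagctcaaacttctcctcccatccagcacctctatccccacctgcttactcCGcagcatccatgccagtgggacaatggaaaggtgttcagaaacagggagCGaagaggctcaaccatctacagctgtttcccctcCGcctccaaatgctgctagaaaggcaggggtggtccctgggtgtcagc
Grik3: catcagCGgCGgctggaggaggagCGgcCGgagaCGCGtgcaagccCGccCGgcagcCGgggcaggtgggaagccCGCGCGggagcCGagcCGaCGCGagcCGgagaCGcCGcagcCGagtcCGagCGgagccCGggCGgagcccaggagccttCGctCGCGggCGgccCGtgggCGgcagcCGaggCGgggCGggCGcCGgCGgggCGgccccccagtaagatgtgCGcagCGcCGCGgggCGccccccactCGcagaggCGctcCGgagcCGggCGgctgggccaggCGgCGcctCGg

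REST represses many neuronal genes through a long element called RE1, and Rest itself was 2.79-fold lower in NCs, at 32.0 and 11.5 FPKM. The left part of RE1, TTCAGCACC, was searched on both strands. It occurred in 1 of 83 receptor windows (1.2%), that of Grm2, and in 0.371% of all 32851 windows. Grm2 was 7.68-fold lower in NCs, at 0.499 and 0.0650 FPKM, and a link to the Rest level was not tested. The hexamer AGGTCA, bound by retinoic acid receptors and other nuclear receptors, was in 11 receptor windows (13.3%) and in 16.3% of all windows. No receptor window held this hexamer in tandem with 5, 2 or 1 bases between, and neither match nor absence in so short a window shows what binds. The Grm2 window (chr9:106656060-106656359, minus strand) is shown with the RE1 letters in capitals.
Grm2: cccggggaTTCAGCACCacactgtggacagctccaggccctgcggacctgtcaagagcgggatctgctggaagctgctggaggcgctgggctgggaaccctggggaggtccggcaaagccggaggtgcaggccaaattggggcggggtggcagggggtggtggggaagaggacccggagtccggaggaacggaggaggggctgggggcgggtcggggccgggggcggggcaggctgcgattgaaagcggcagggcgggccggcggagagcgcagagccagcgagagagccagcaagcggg

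Genes that make, carry or clear the transmitters, or hold the receptors in place, were read from lists. Their counts stand beside 13.8% higher and 11.2% lower among all evaluable entries, whose median log2 ratio was -0.02, and beside 25.5% and 16.6% among those under 5 FPKM. In the GABA and glycine list 10 of 16 genes were evaluable, with 2 higher, 1 lower and 7 within the limit and a median log2 ratio of 0.44. Gad1, which makes GABA, was 14.6-fold lower in NCs, at 2.23 and 0.153 FPKM. Slc6a13, a GABA transporter, was 2.83-fold higher, at 0.413 and 1.17 FPKM. Gphn, the gephyrin gene, was within the limit at 4.29 and 6.54 FPKM. Gabarap, which binds GABA-A gamma subunits and also acts in autophagy, led the list with 107 FPKM in ESCs against 136 FPKM in NCs.

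In the glutamate list 28 of 36 genes were evaluable, 7 of them higher, 2 lower and 19 within the limit, with a median log2 ratio of 0.33, beside the same 13.8% and 11.2% of all evaluable entries and 25.5% and 16.6% of those under 5 FPKM. Neto2, an auxiliary subunit of kainate receptors, was 6.38-fold higher in NCs, at 0.510 and 3.26 FPKM. The AMPA receptor scaffold gene Grip1 was 4.38-fold higher, at 1.69 and 7.39 FPKM, and the AMPA auxiliary subunit gene Cacng4 2.54-fold higher, at 1.25 and 3.18 FPKM. Nptx1, a secreted binder of AMPA receptors, was 5.29-fold higher, at 0.218 and 1.15 FPKM, while its relative Nptx2 was 2.87-fold lower, at 8.61 and 3.0 FPKM. Homer2 was 3.28-fold higher, at 0.843 and 2.77 FPKM. Slc1a1, a glutamate transporter, was 3.02-fold lower, at 1.67 and 0.555 FPKM. Glul, which makes glutamine, had the highest level, 72.1 FPKM in ESCs against 103 FPKM in NCs. Vesicular glutamate transporters were represented by Slc17a7, at 2.22 and 3.12 FPKM.

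Of the acetylcholine list 7 of 13 genes were evaluable, with 3 higher, 1 lower and 3 within the limit and a median log2 ratio of 0.69, again beside 13.8% higher and 11.2% lower of all evaluable entries, or 25.5% and 16.6% under 5 FPKM. Ric3, a chaperone of nicotinic receptors, was 2.65-fold higher in NCs, at 2.40 and 6.35 FPKM, and Bche, a cholinesterase, 4.03-fold higher, at 0.407 and 1.64 FPKM. Rapsn, which clusters the muscle receptor, was 2.29-fold lower, at 1.12 and 0.490 FPKM, in the direction of Chrna1. Agrn led the list with 39.5 and 59.4 FPKM. Chat, the enzyme that makes acetylcholine, had at most 0.0516 FPKM. In the monoamine list 8 of 14 genes were evaluable, with 3 higher, 0 lower and 5 within the limit and a median log2 ratio of 0.63, to be read beside the same shares. Ddc, an enzyme of dopamine and serotonin synthesis, was 4.19-fold higher, at 4.20 and 17.6 FPKM, and Maob, which breaks down amines, 2.31-fold higher, at 1.97 and 4.53 FPKM. Th had 0.250 FPKM in NCs, and Dbh was listed at 0 in both conditions. The 7 receptor kinase and arrestin genes were all within the limit, with a median log2 ratio of -0.15, Grk6 being highest at 42.8 and 38.4 FPKM.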

How the data were processed

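RNA-seq was made by the authors with the TruSeq kit from 3 ESC and 3 NC samples. Per the submitters' processing notes and the methods, they aligned reads to mm10 with TopHat2 (2.0.8), which used Bowtie2 (2.1.0), then ran Cufflinks (2.0.2), Cuffmerge and Cuffdiff, whose version is not given in the sources used here. The authors deposited FPKM, 1 value per gene and condition; the NC column is headed FPK and was read as FPKM, since both columns have like sums. The fold changes, test statistics, p-values and q-values of the authors in the same table were not used. Cuffdiff status OK marked evaluable genes. The ratio was taken without a pseudocount, with a limit of 2-fold. Genes with at least 0.5 FPKM in either condition, and the highest of each family, are named with values; partner genes are named where they reach 1 FPKM and differ 2-fold or lead their list. Gphn, Slc17a7, Chat, Th, Dbh and receptor genes under 0.5 FPKM other than the family leaders were chosen after their values were seen. The members and lists were chosen with earlier results of these data known. Fragments per gene used a fragment length of 200 bases and the median GENCODE M21 coding transcript, a way chosen after seeing the data. Depth per sample is unknown. Some genes of the set and lists enter the counts but are not reported here by name. Of the table, 266 entries repeat a name, none of them a receptor gene. Python 3.11.15, numpy 2.4.6, pandas 2.3.3, scipy 1.17.1 and matplotlib 3.10.9 were used.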

Additional observations from a re-analysis of the deposited data

How the results depend on the processing

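No paired analysis was possible because the table holds 1 value per condition, and no replicate could be left out for the same reason. The counts of 16 higher and 10 lower genes moved by over 1.5 times with a pseudocount of 1 FPKM (7 higher, 4 lower), a limit of 4-fold (10 higher, 5 lower) and no filter on low values (38 higher, 18 lower of 89 genes). With the pseudocount of 1, 17.9% of receptor genes were higher and 10.3% lower, against 7.23% and 6.57% of all entries counted. At 4-fold the receptor shares were 25.6% and 12.8%, against 5.7% and 3.93%. Without the filter they were 42.7% and 20.2%, against 16.2% and 13.2%. The median log2 ratio of 0.70 became 0.59 with a pseudocount of 0.1, 0.29 with a pseudocount of 1 and 0.99 with both conditions scaled to the same sum, which adds 0.29 to every log2 ratio. Of 36 genes with at least 0.5 FPKM, 13 were no longer past 2-fold with a pseudocount of 1, which acts most on low values. Scaling to the same sum moved 5 of the 36 across the limit (Adrb3 and Chrna1 among those to within it, Chrnb4 and Gria3 beyond it) and turned the direction of Chrnb1, which was within it. Centring on the median moved none. Limits of 0.1, 0.5 or 1 FPKM in place of the Cuffdiff mark kept both counts within 1.5 times, as did a limit of 1.5-fold. Restricting the genes to those under 5 FPKM, chosen after seeing the data, also did. Counted with the larger step, levels below 0.0413 FPKM (ESCs) or 0.0428 FPKM (NCs) rest on 3 fragments or fewer. This holds for a transcript 1 kb long after the assumed fragment length of 200 bases is taken off. Counted with the smaller step, such levels would rest on more fragments.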
